A study of Homo sapiens with 8 samples.

Results

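UPF1 is an RNA helicase best known for nonsense-mediated mRNA decay, but it is also recruited to mRNAs by other proteins that choose the message to be degraded. The 7 genes described here were taken by symbol from the expression tables, 7 of the 17076 genes listed, because their products or transcripts belong to 4 of these other routes. STAU1 and STAU2 encode the Staufen proteins of Staufen-mediated decay, and ARF1 is a classic Staufen target. SLBP encodes the protein that bridges histone mRNAs to UPF1. ZC3H12A encodes Regnase-1, a ribonuclease that works with UPF1 on inflammatory mRNAs. NR3C1 encodes the glucocorticoid receptor, and PNRC2 encodes the adaptor that joins UPF1 to the decapping machinery in glucocorticoid receptor-mediated decay. Only PNRC2 passed the test after UPF1 depletion, where it rose 1.26-fold and where 21.5% of all genes passed, and none of the 7 passed it after UPF1 overexpression, where 1.43% of all genes did.

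Huh7, an established human hepatocellular carcinoma line, was studied by RNA-seq in 4 groups of 2 libraries. For depletion, cells given UPF1 siRNA (siUPF1) were compared with cells given control siRNA (siControl). For overexpression, cells given MYC-UPF1, which is UPF1 joined to a MYC tag, were compared with cells given the MYC vector without UPF1 (MYC). Both are transfections into 1 line, the time of harvest is not given in the sources used here, and the labels do not say whether the 2 libraries of a group came from separate cultures, so p-values measure the spread between these libraries, which may be technical. Values are FPKM, a level per transcript length and per library total, and each library lists all 17076 genes above 0. The number of reads behind a value is unknown, because no steps of whole reads were found among the low values. Summed FPKM ran from 403902 in siUPF1 replicate 2 to 455592 in siControl replicate 2.

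In these routes an RNA-binding protein recognises a structure or sequence in the mRNA, often in the 3′UTR, and UPF1 is brought in, after which the mRNA is decapped, deadenylated or cut. Staufen proteins bind double-stranded stems in 3′UTRs. SLBP binds a short stem-loop that ends the replication-dependent histone mRNAs, which are degraded when DNA synthesis stops. Regnase-1 cuts stem-loops in cytokine and iron-regulation mRNAs while they are translated. The glucocorticoid receptor can bind certain mRNAs directly, and PNRC2 then carries UPF1 and DCP1A to them.

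The RNA structures behind 2 of these routes could be read from the reference and are shown because they are the features by which the proteins choose an mRNA. In the ARF1 3′UTR (GENCODE annotation, GRCh37), a search for the longest uninterrupted stem with both arms within 300 bases found 19 pairs, 17 of them A-U or G-C and 2 G-U. The arms are written 5′ to 3′ in capitals because every base of each is paired, the first arm starts at base 75 of the 3′UTR, and the loop between them is 100 bases long.
ARF1 first arm, chr1:228285789-228285807, plus strand: GAGUGCCAGAAGCUGCCUC
ARF1 second arm, chr1:228285908-228285926, plus strand: GAGGCAGUUUCUGGUACUC
Among 13098 3′UTRs searched in the same way, 6.57% held a stem as long, and among the 1782 of similar length (up to 1.25 times longer or shorter) the share was 2.53%. The longest stem was 15 pairs in STAU1, 14 in STAU2 and PNRC2, 13 in ZC3H12A and 12 in SLBP. NR3C1 held 21 pairs in a 3′UTR of 3955 bases, and 8.83% of 3′UTRs of similar length held a stem as long. Such a match describes the sequence and is not evidence of binding.

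For the histone route, the most frequent sequence of 16 bases whose ends pair was taken from the 3′UTRs of the replication-dependent histone genes in the tables. The capitals mark the bases that pair and the lower case marks the loop.
Histone stem-loop, DNA letters: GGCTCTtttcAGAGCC
It stood in 28 of the 45 histone 3′UTRs read (62.2%) and in 0 of 13041 other 3′UTRs, with the match required to be exact. The other 3′UTRs left out every gene with a symbol beginning H1, H2, H3 or H4, so histone genes with such symbols outside the list were not searched.

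UPF1 itself checked the labels. UPF1 was at 44.5 and 47.4 FPKM in the siControl libraries and at 20.7 and 21.9 FPKM in the siUPF1 libraries. On the log2(FPKM + 1) scale UPF1 fell by 1.07 ± 0.0928 (standard error), with a limma adjusted p = 0.0308 (Benjamini-Hochberg), and 0.475-fold of the transcript remained. It was at 45.1 and 57.4 FPKM in the MYC libraries and at 2835 and 2484 FPKM in the MYC-UPF1 libraries, which was higher by 5.68 in log2 (limma, adjusted p = 8.91e-09). The depletion was partial, and the second value counts transcripts of the transfected gene as well as the cells' own. The siRNAs designed against UPF1 are shown as sense strands, and which of them was used for the sequenced cells is not given in the sources used here.
siRNA for the coding sequence, chr19:18967738-18967760, plus strand, GRCh37: ccaagaugcaguuccgcuccauu
siRNA for the 3′UTR, chr19:18977357-18977381, plus strand, GRCh37: gcuuaguccaucagcaucuuauucu

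The libraries did not all resemble their own group most. Across genes, log2(FPKM + 1) of the siControl pair correlated at 0.9964 and of the siUPF1 pair at 0.9942. The first siUPF1 library correlated at 0.9945 and 0.9953 with the siControl libraries, above its own pair, and the second at 0.9902 and 0.9900. The MYC pair correlated at 0.9961 and the MYC-UPF1 pair at 0.9959, whereas MYC replicate 1 with MYC-UPF1 replicate 2 reached 0.9977 and MYC replicate 2 with MYC-UPF1 replicate 1 reached 0.9974. The overexpression libraries thus stood in pairs that cross the groups and the replicate numbers. A fit with these pairs as a block, chosen after the data were seen, called 9.26% of all genes after overexpression. The labelled liver origin held in each library. All 8 liver markers were listed, with AFP between 11093 and 12505 FPKM and ALB between 6550 and 8371 FPKM, and 0 of 8 passed the test in either comparison, while with the crossed pairs as a block 1 was higher and 2 lower after overexpression. Of the markers of other cell types, PTPRC and CD3E of blood, COL1A1 and DCN of fibroblasts and VWF of endothelium were not in the tables. CD68 was between 2.95 and 3.84 FPKM, COL1A2 between 0.280 and 0.539 FPKM and PECAM1 between 0.535 and 0.796 FPKM, and neither CD68 nor PECAM1 passed the test, while COL1A2 was below the level tested.

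On the per-length scale of FPKM, the 7 genes fell into 4 ranges. ARF1 stood highest, with 185 to 218 FPKM over the 8 libraries, which put its mean at percentile 98.2 of the 13412 genes with a mean of at least 0.5 FPKM. STAU1 (49.1 to 58.6 FPKM), PNRC2 (41.0 to 58.7 FPKM) and SLBP (35 to 43.3 FPKM) overlapped as neighbours in the order and stood between percentiles 88.3 and 91.9. STAU2 (6.22 to 8.18 FPKM) was at percentile 50.8. NR3C1 (2.67 to 3.69 FPKM) and ZC3H12A (2.64 to 3.65 FPKM) overlapped almost entirely, at percentiles 31.7 and 31.2. PNRC2 varied most among the 7 over the 8 libraries. The standard deviation of log2(FPKM + 1) was 0.168 for PNRC2 and between 0.0840 and 0.122 for the others, beside a median of 0.158 over all genes.

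**Figure D1:**
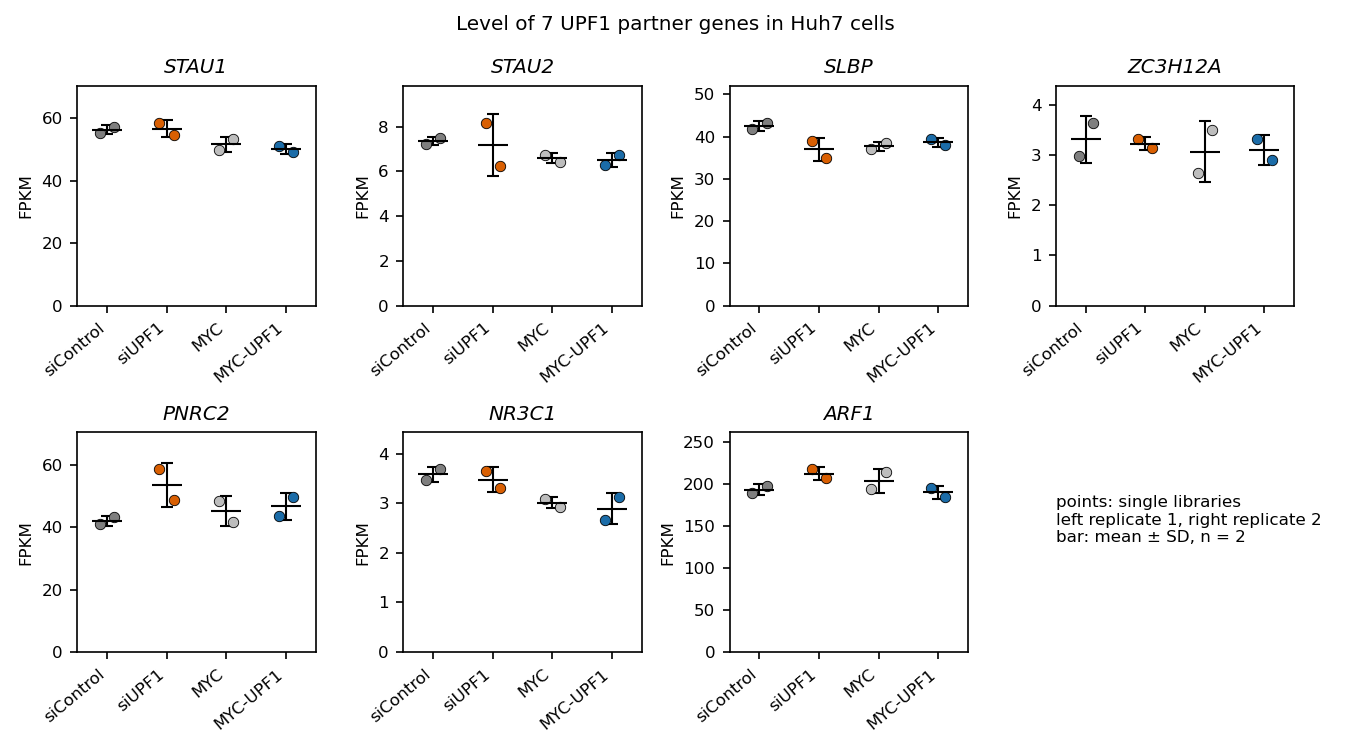
FPKM of the 7 genes in each of the 8 Huh7 libraries, 1 panel per gene, with points for single libraries and bars for the mean ± SD (n = 2) of siControl, siUPF1, MYC and MYC-UPF1. Both siUPF1 points lie above both siControl points for PNRC2 and ARF1 and below them for SLBP, and no gene separates MYC-UPF1 from MYC.

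Differences were tested gene by gene with limma on log2(FPKM + 1), and a gene was called at an unadjusted p of 0.05, the threshold the study states, with the adjusted p over all genes given beside it. After depletion, 2908 of 13535 genes tested were called (21.5%), 2162 higher (16%) and 746 lower (5.51%), and 5 passed an adjusted p of 0.05 (0.0369%). With median centring the split was 1602 higher and 1271 lower, with quantile normalization it was 1417 and 1408, and with the trend of GC content and length taken out it was 1478 and 1512. Of the 7 genes, 1 was called higher and 0 lower, and 0 passed the adjusted threshold. After overexpression, 189 of 13251 genes were called (1.43%), 82 higher (0.619%) and 107 lower (0.807%), and 1 passed the adjusted threshold (0.00755%), which was UPF1. Of the 7 genes, 0 were called in either direction. The difference between the responses was tested over all 8 libraries and called 2041 of 13412 genes (15.2%), 3 of them at an adjusted p of 0.05 (0.0224%), and 0 of the 7. With so few libraries an exact two-sided permutation test of a gene cannot go below 0.333, so these p-values rest on the variance limma shares across genes.

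**Figure D2:**
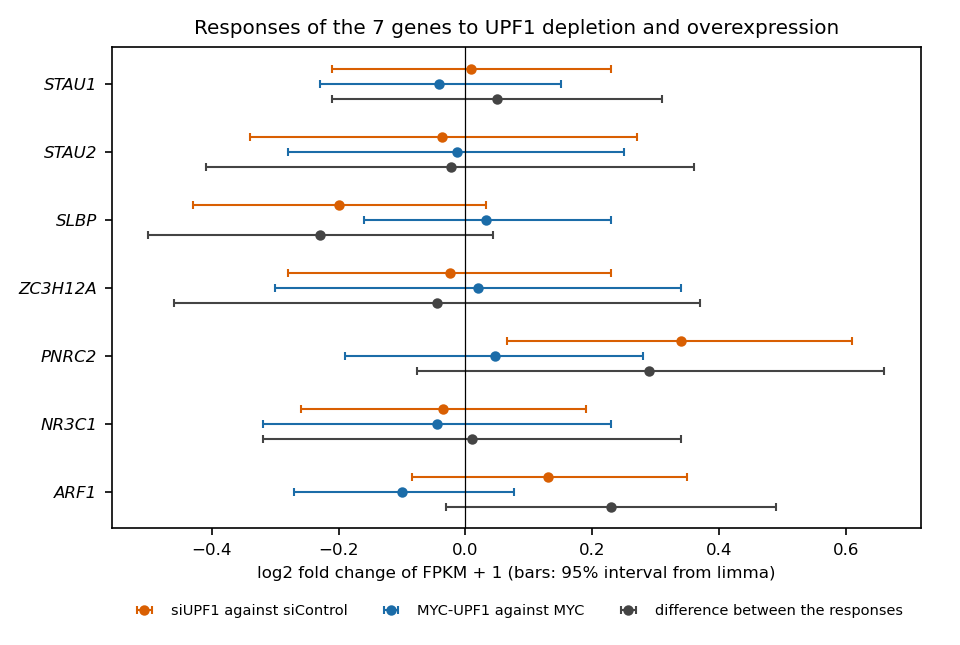
Log2 fold change of FPKM + 1 for each of the 7 genes after UPF1 depletion, after UPF1 overexpression, and for the difference between these responses, with bars for the 95% interval from limma. The interval lies wholly on one side of 0 only for PNRC2 after depletion, from 0.065 to 0.61.

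Staufen-mediated decay begins with the Staufen proteins, which bind double-stranded RNA and also carry mRNAs along microtubules. STAU1 (chr20:47729876-47804904, minus strand, GRCh37) was at 55.3 and 57.3 FPKM in siControl and at 58.6 and 54.7 FPKM in siUPF1. It was at 49.9 and 53.4 FPKM in MYC and at 51.2 and 49.1 FPKM in MYC-UPF1. The groups overlapped in both experiments, with log2 fold changes of 0.0084 (95% interval -0.21 to 0.23) and -0.041 (95% interval -0.23 to 0.15). Both siControl libraries were above both MYC libraries, which is a comparison of separate experiments and was not tested.

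STAU2, the neuron-enriched relative of STAU1 (chr8:74332604-74659943, minus strand), was at 7.22 and 7.50 FPKM in siControl and at 8.18 and 6.22 FPKM in siUPF1. The siUPF1 libraries lay on either side of both controls. It was at 6.74 and 6.43 FPKM in MYC and at 6.30 and 6.72 FPKM in MYC-UPF1, which overlapped. The log2 fold changes were -0.037 (95% interval -0.34 to 0.27) and -0.014 (95% interval -0.28 to 0.25). Without siUPF1 replicate 1 the change after depletion was -0.211 and passed an unadjusted p of 0.05, and without siUPF1 replicate 2 it was 0.136.

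ARF1 encodes a small GTPase that recruits vesicle coats at the Golgi, and its 3′UTR holds the stem printed above. ARF1 (chr1:228270409-228286913, plus strand) was at 189 and 198 FPKM in siControl and at 218 and 207 FPKM in siUPF1. Both siUPF1 libraries were above both controls, but the difference of 0.13 in log2 (standard error 0.0922, 95% interval -0.085 to 0.35) did not pass the test (limma adjusted p = 0.42). ARF1 was at 194 and 214 FPKM in MYC and at 196 and 185 FPKM in MYC-UPF1, which overlapped, with a log2 fold change of -0.10 (95% interval -0.27 to 0.077). The 2 responses differed by 0.23 in log2 (95% interval -0.03 to 0.49, limma adjusted p = 0.376). This difference passed an unadjusted p of 0.05 without siUPF1 replicate 2 (0.268) and without MYC replicate 1 (0.302). With the trend of GC content and length removed, the difference was 0.0938. MIR3620, a microRNA gene that lies inside ARF1 on the same strand and can share its reads, was listed at 1.52 and 1.21 FPKM in siControl and at 1.65 and 2.03 FPKM in siUPF1.

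Other transcripts known as Staufen targets were read from a list of 9 genes that includes ARF1, of which 7 were in the tables and 6 were tested. After depletion 1 was called higher, against 16% of all genes, and 0 lower, and the median log2 fold change was 0.0079 against 0.057 over all genes. The median was -0.074 without siControl replicate 1 and 0.090 without siControl replicate 2. With quantile normalization, with the trend of GC content and length taken out and with the crossed pairs as a block, 1 gene was called lower. These fits called 1408, 1512 and 912 of all genes lower. The gene called was JUN, a subunit of the AP-1 transcription factor, at 19.0 and 20.4 FPKM in siControl and 24.0 and 26.0 FPKM in siUPF1. JUN rose by 0.33 on the log2 scale (standard error 0.0958, adjusted p = 0.141 in limma), and its call was lost without siControl replicate 1 (0.281). The change was 0.170 once the trend of GC content and length was taken out. KLF2, a transcription factor, had a log2 fold change of -0.26, with both siUPF1 libraries below both controls, and did not pass the test. After overexpression 0 of 6 were called, with a median of 0.10 against -0.014 over all genes, which was 0.042 without MYC replicate 1. With the crossed pairs as a block, or with the trend of GC content and length taken out, 2 of the 6 were called higher. The first of these fits called 348 of 13251 genes higher, and the second called 219 of 12291. IL7R and PAX3 were not in the tables, and CDCP1 was below the level tested.

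In the histone route, SLBP encodes the stem-loop binding protein that processes, translates and marks for decay the replication-dependent histone mRNAs. SLBP (chr4:1694458-1714071, minus strand) was at 41.7 and 43.3 FPKM in siControl and at 38.9 and 35 FPKM in siUPF1. Both siUPF1 libraries were below both controls. Both siControl libraries were also above both MYC libraries, and the siUPF1 mean of 37 FPKM was near the MYC mean of 37.7 FPKM, a comparison of separate experiments that was not tested. The log2 fold change of -0.20 (standard error 0.0969, 95% interval -0.43 to 0.033) did not pass the test (limma adjusted p = 0.285). It passed an unadjusted p of 0.05 in 5 of the 15 alternatives that kept this threshold, among them median centring (-0.236) and quantile normalization (-0.233). Another of these 5 was the fit without siUPF1 replicate 1 (-0.271). Its spread came from the siControl pair alone, and it called more genes than any other fit of the depletion. Without siUPF1 replicate 2 the change of SLBP was -0.123. After overexpression SLBP was at 39.4 and 37.9 FPKM against 37 and 38.5 FPKM in MYC, which overlapped, with a log2 fold change of 0.033 (95% interval -0.16 to 0.23). The difference between the responses was -0.23 in log2 (95% interval -0.50 to 0.043, limma adjusted p = 0.396). It passed an unadjusted p of 0.05 with median centring (-0.277), quantile normalization (-0.293), the trend of GC content and length removed (-0.235) and without siUPF1 replicate 1 (-0.303).

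The machinery of histone mRNA decay was read from 19 genes, SLBP included, all of them in the tables and tested. After depletion 3 were called higher (16% of all genes were) and 0 lower (5.51%), with a median log2 fold change of -0.00024. With quantile normalization, median centring or the trend of GC content and length taken out 2 were called lower. These fits called 1408, 1271 and 1512 of all genes lower. Without siUPF1 replicate 1 the median was -0.074. LSM4, a subunit of the LSM ring that binds the oligouridylated tail of decaying histone mRNA, was at 96.0 and 101 FPKM in siControl and at 118 and 124 FPKM in siUPF1, higher by 0.30 in log2 (standard error 0.0913, adjusted p = 0.149 in limma). LSM7, of the same ring, rose from 91.2 and 94.9 FPKM to 106 and 118 FPKM, and MIF4GD, which binds SLBP to promote histone translation, from 2.24 and 2.1 FPKM to 2.68 and 2.77 FPKM. The calls of LSM4, LSM7 and MIF4GD were lost without either siControl library and once the trend of GC content and length was taken out, and those of LSM7 and MIF4GD also without siUPF1 replicate 2. Without a siControl library the changes of LSM4 were 0.260 and 0.330 and those of LSM7 were 0.232 and 0.289, whereas with the trend taken out LSM4 was at 0.120, LSM7 at 0.131 and MIF4GD at 0.103. MIF4GD, at 0.265 and 0.200 without a siControl library, was also not called with median centring (0.193), quantile normalization (0.152), either the replicate number or the crossed pairs as a block, or all 8 libraries in 1 fit (0.232 in these 3). The nuclease ERI1, which trims the histone stem-loop, had a log2 fold change of -0.094, and the uridylyltransferases TUT4 and TUT7 had changes of -0.034 and 0.16. None of these 3 passed the test. After overexpression 0 of 19 were called.

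The replication-dependent histone genes themselves are the targets of this route. Their mRNAs mostly lack a poly(A) tail, so a kit that selects poly(A) RNA, as used here, reads only part of them, and near-identical copies such as H2AC18 and H2AC19 can share reads. Of 49 in the tables, 45 were tested after depletion, with 2 called higher (16% of all genes) and 7 lower (5.51% of all genes), and a median of -0.10 against 0.057 over all genes. H2BC12, the most abundant of them, was at 242 and 236 FPKM in siControl and at 212 and 140 FPKM in siUPF1, a change of -0.47 in log2 (standard error 0.183, adjusted p = 0.208 in limma). The fall of H2BC12 was carried by the second siUPF1 library, without which it was -0.175 and not called. It was also not called with no FPKM minimum, at an unchanged -0.474. H2BC8 was at 4.26 and 5.14 FPKM in siControl and at 3.65 and 1.74 FPKM in siUPF1 (log2 fold change -0.67, limma adjusted p = 0.176). Its change was -0.289 without siUPF1 replicate 2, and with no FPKM minimum it was not called, at an unchanged -0.67. H2AC13 was at 3.54 and 2.30 FPKM against 1.21 and 1.73 FPKM (log2 fold change -0.66, adjusted p = 0.123), and at -0.427 without siControl replicate 1. H4C3 went the other way, from 0.713 and 0.386 FPKM to 0.961 and 1.39 FPKM (log2 fold change 0.49, adjusted p = 0.147), and its call was lost without siControl replicate 2 (0.337). With 1 library left out, the count called lower ranged from 5 without siControl replicate 1 to 17 without siControl replicate 2 or without siUPF1 replicate 1, in fits that called 494, 369 and 2223 of all genes lower, and the median was -0.0023 without siControl replicate 1 and -0.23 without siControl replicate 2. With no FPKM minimum or with one of 5, 4 were called lower. The count was 10 with quantile normalization and 11 with median centring. With the trend of GC content and length taken out it was 12 of 42, with a median of -0.22. These 3 fits called 1408, 1271 and 1512 of all genes lower.

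After overexpression, 38 histone genes were tested, with 0 called higher and 3 lower (0.807% of all genes), and a median of -0.11 against -0.014. With the crossed pairs as a block 1 was called higher and 12 lower, in a fit that called 348 of 13251 genes higher and 879 lower. In 1 fit of all 8 libraries 1 of 42 was called lower, as were 97 of all 13412 genes. H2AC17 was at 2.13 and 1.95 FPKM in MYC and at 1.15 and 0.929 FPKM in MYC-UPF1, with -0.58 in log2 (adjusted p = 0.638 in limma, 0.0285 with the crossed pairs as a block and 0.0291 without MYC-UPF1 replicate 1). H2BC4 fell from 3.43 and 3.56 FPKM to 2.51 and 2.58 FPKM (log2 fold change -0.34) and H3C3 from 3.08 and 3.16 FPKM to 1.62 and 2.77 FPKM (log2 fold change -0.39, adjusted p = 1 for both). H2AC17 passed an unadjusted p of 0.05 in each alternative that kept this threshold and tested it. With 1 library left out, H2BC4 was called in none of the 4 fits and H3C3 only in the fit without MYC-UPF1 replicate 2. Without MYC-UPF1 replicate 1 H3C3 was at -0.128, whereas H2BC4 stayed between -0.364 and -0.32 in the 4 fits. H3C3 was also not called with no FPKM minimum (-0.389) or with the trend of GC content and length taken out (-0.361). Neither H2BC4 (-0.342) nor H3C3 (-0.389) was called with all 8 libraries in 1 fit. None of the 3 was called after depletion, where their log2 fold changes were 0.068 for H2AC17, -0.069 for H2BC4 and -0.22 for H3C3. Of these, the responses of H2AC17 differed between the experiments by 0.65 in log2 at an unadjusted p of 0.05 (limma adjusted p = 0.179).

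ZC3H12A, or Regnase-1, is a ribonuclease that limits inflammatory mRNAs and needs UPF1 to unwind its stem-loop targets. ZC3H12A (chr1:37940181-37949978, plus strand) was at 2.99 and 3.65 FPKM in siControl and at 3.32 and 3.14 FPKM in siUPF1. It was at 2.64 and 3.5 FPKM in MYC and at 3.32 and 2.90 FPKM in MYC-UPF1. In both experiments the treated libraries lay between the control libraries. The log2 fold changes were -0.025 (95% interval -0.28 to 0.23) and 0.020 (95% interval -0.30 to 0.34). With the trend of GC content and length removed, the change after depletion was -0.249 (limma adjusted p = 0.188). Its transcript is 61.2% GC, at percentile 88.3 of genes by GC content.

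Among 13 partners and relatives of Regnase-1, which include ZC3H12A itself, 12 were in the tables and 10 were tested, with 1 called higher (16% of all genes) and 0 lower (5.51%) after depletion. With the trend of GC content and length taken out 0 were higher and 3 lower, in a fit that called 1478 of 12510 genes higher and 1512 lower. Without siUPF1 replicate 1 the median of these genes was -0.12, against -0.037 with all libraries. IRAK1, the kinase that triggers Regnase-1 breakdown downstream of Toll-like receptors, was at 32.3 and 35.1 FPKM in siControl and at 39.8 and 47.1 FPKM in siUPF1. IRAK1 rose by 0.35 in log2 (standard error 0.112, adjusted p = 0.158 in limma), a change of 0.0999 once the trend of GC content and length was taken out and of 0.296 without siControl replicate 1, and was called in neither case. The responses of IRAK1 in the 2 experiments differed by 0.53 (adjusted p = 0.194). The paracaspase MALT1, which cleaves Regnase-1, was at -0.12, and the roquins RC3H1 and RC3H2, which share its stem-loop targets, were at -0.13 and -0.016. None of these 3 passed the test. The relatives ZC3H12C and ZC3H12D were below the level tested. After overexpression 0 of 10 were called, and 1 was lower with the crossed pairs as a block, which called 879 of 13251 genes lower. The median was -0.03, and it was 0.013 without MYC replicate 1, where the calls also changed.

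Of 17 known Regnase-1 targets, 8 were in the tables and 7 were tested. After depletion 0 were called higher and 2 lower (5.51% of all genes), with a median log2 fold change of -0.24 against 0.057 over all genes. The median was -0.086 without siUPF1 replicate 2 and -0.40 without siUPF1 replicate 1. TFRC, the transferrin receptor, was at 106 and 117 FPKM in siControl and at 84.8 and 78.6 FPKM in siUPF1, with no overlap. TFRC changed by -0.44 in log2 (standard error 0.0993, adjusted p = 0.0937 in limma), and without siControl replicate 2 it was -0.374 and not called. NFKBIZ, an inducible regulator of NF-κB target genes, was at 17.2 FPKM in both siControl libraries and at 14.3 and 10.6 FPKM in siUPF1, a log2 fold change of -0.45 (adjusted p = 0.149). NFKBIZ passed an unadjusted p of 0.05 in each of the 15 alternatives that kept this threshold and was at -0.247 without siUPF1 replicate 2. The chemokines CXCL1 and CXCL3 were at -0.26 and -0.24 and CXCL2 at -0.00093, and none of them passed the test. The number of targets called lower was 3 with quantile normalization, with the trend of GC content and length taken out and with the crossed pairs as a block. These fits called 1408, 1512 and 912 of all genes lower. After overexpression 0 of 7 were called, and the difference between the responses was -0.40 for TFRC (limma adjusted p = 0.212) and -0.47 for NFKBIZ (adjusted p = 0.297), both past an unadjusted p of 0.05.

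The glucocorticoid receptor is a hormone-activated transcription factor that is also an mRNA-binding protein. NR3C1 (chr5:142657496-142815077, minus strand) was at 3.48 and 3.69 FPKM in siControl and at 3.65 and 3.30 FPKM in siUPF1. It was at 3.09 and 2.93 FPKM in MYC and at 2.67 and 3.12 FPKM in MYC-UPF1. The groups overlapped in both experiments, with log2 fold changes of -0.035 (95% interval -0.26 to 0.19) and -0.045 (95% interval -0.32 to 0.23). Both siRNA groups lay above the MYC libraries, a difference between separate experiments that was not tested.

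PNRC2 is a small coregulator of nuclear receptors that binds phosphorylated UPF1 and activates decapping through DCP1A. PNRC2 (chr1:24283329-24289952, plus strand) was at 41.0 and 43.2 FPKM in siControl and at 58.7 and 48.7 FPKM in siUPF1. Both siUPF1 libraries were above both controls, and the first was well above the second. The means were 42.1 ± 1.56 and 53.7 ± 7.10 FPKM (SD, n = 2). On the log2 scale PNRC2 rose by 0.34 (standard error 0.114, 95% interval 0.065 to 0.61, limma adjusted p = 0.173), past an unadjusted p of 0.05. In these bulk libraries, more transcript in every cell and more cells carrying it cannot be told apart.

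The call of PNRC2 was lost without either siControl library and without the first siUPF1 library. Without a siControl library the spread came from the siUPF1 pair, and the standard error was 0.189, against 0.114 in the reported fit. Without siControl replicate 1 the log2 fold change was 0.299, without siControl replicate 2 it was 0.373, and without siUPF1 replicate 1 it was 0.203, none of them past an unadjusted p of 0.05. Without siUPF1 replicate 2 it was 0.469. In such a fit the spread comes from the siControl pair, and the lone siUPF1 library is assumed to vary like it. The change was called in 12 of the 15 alternatives that kept the unadjusted p of 0.05, and its direction was the same in all 15. PNRC2P1, a processed pseudogene on chromosome 1 (chr1:118320709-118321128, minus strand), matched the PNRC2 transcript at 415 of its 420 bases (98.8%) and is in the tables, so reads from this part of PNRC2 could be split between them. PNRC2P1 was at 2.80 and 2.72 FPKM in siControl and at 3.43 and 3.15 FPKM in siUPF1, also above both controls, with a log2 fold change of 0.19 that did not pass the test (adjusted p = 0.291). After overexpression it was at 2.52 and 2.54 FPKM in MYC and at 2.75 and 2.99 FPKM in MYC-UPF1, above both controls where PNRC2 overlapped them, and its log2 fold change of 0.13 did not pass the test.

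After overexpression PNRC2 was at 48.6 and 41.8 FPKM in MYC and at 43.7 and 49.7 FPKM in MYC-UPF1. The groups overlapped, with a log2 fold change of 0.047 (95% interval -0.19 to 0.28). Its high and low values followed the crossed pairs of libraries, high in MYC replicate 1 and MYC-UPF1 replicate 2 and low in the other two. The responses of PNRC2 to depletion and to overexpression differed by 0.29 in log2 (95% interval -0.077 to 0.66, limma adjusted p = 0.418), which did not pass the test. The difference was 0.156 without siUPF1 replicate 1 and 0.422 without siUPF1 replicate 2, where it passed an unadjusted p of 0.05.

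The remaining machinery of glucocorticoid receptor-mediated decay, a list of 5 genes with NR3C1 and PNRC2, had 1 call higher after depletion (16% of all genes), which was PNRC2, and 0 lower (5.51%). With quantile normalization 1 was called lower and with the trend of GC content and length taken out 2 were, in fits that called 1408 and 1512 of all genes lower. Without siUPF1 replicate 1 the median of the list was -0.18, against -0.067 with all libraries. The decapping activator DCP1A was at 2.63 and 2.52 FPKM in siControl and at 2.32 and 2.02 FPKM in siUPF1, and YBX1, an mRNA-binding protein, was at 367 and 373 FPKM against 358 and 314 FPKM. Both were below their controls in both libraries, with log2 fold changes of -0.18 and -0.14 that did not pass the test. The endonuclease RIDA, also called HRSP12, was at -0.067. After overexpression 0 of 5 were called. Of 3 known targets of this route only BCL3, a nuclear IκB protein, was in the tables, and its log2 fold changes were -0.037 after depletion and -0.16 after overexpression, neither of which passed the test. BCL3 was called lower after depletion with the trend of GC content and length taken out (-0.33), and after overexpression with the crossed pairs as a block and without MYC replicate 1 (-0.40).

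Of 9 chaperones and coactivators of the glucocorticoid receptor, all tested, 1 was called higher (16% of all genes) and 1 lower (5.51%) after depletion. The count called lower was 2 with quantile normalization, with median centring and with the trend of GC content and length taken out. These fits called 1408, 1271 and 1512 of all genes lower. FKBP5, a co-chaperone that is itself a classic glucocorticoid-induced gene, was at 6.25 and 6.26 FPKM in siControl and at 4.89 and 4.66 FPKM in siUPF1. FKBP5 changed by -0.33 in log2 (standard error 0.0901, adjusted p = 0.129 in limma), and its call was lost without siControl replicate 1 or replicate 2, with the change still at -0.329 in each case. The responses of FKBP5 to depletion and overexpression differed by -0.35 (limma adjusted p = 0.265), past an unadjusted p of 0.05. NCOA1, a coactivator of nuclear receptors, went from 1.69 and 1.79 FPKM to 2.39 and 2.21 FPKM (log2 fold change 0.27, adjusted p = 0.187). It lost its call without siControl replicate 1 (0.240), siControl replicate 2 (0.293) or siUPF1 replicate 1 (0.228), and with quantile normalization (0.176) or the replicate number as a block (0.266). HSP90AA1 and HSP90AB1, the chaperones that hold the receptor ready for hormone, were at -0.073 and -0.0061, and neither passed the test. After overexpression 0 of 9 were called.

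The depletion response moved with the GC content of the transcript across all genes. Genes were divided into 10 equal groups by GC content. The median log2 fold change was -0.114 in the lowest, where 2% of genes were called higher and 14% lower, and 0.257 in the highest, where 42.2% were called higher and 0.4% lower. After overexpression the medians ran from 0.0246 to -0.0815. PNRC2, at 38.1% GC, belongs to the lowest group and rose against its neighbours. With each library's trend of GC content and length removed, the rise of PNRC2 was 0.449 (limma adjusted p = 0.0205), and its difference between the experiments was 0.439 (adjusted p = 0.035). ARF1, at 54.0% GC, had 0.13 before this step, beside a median of 0.116 in its group, and 0.0223 after it. SLBP, at 47.3% GC, had -0.20 before it, beside a median of 0.0249 in its group, and -0.212 after it (adjusted p = 0.112). Of the 7 genes, 1 was then called higher and 2 lower (SLBP and ZC3H12A), among 12510 genes of which 23.9% were called.

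**Figure D3:**
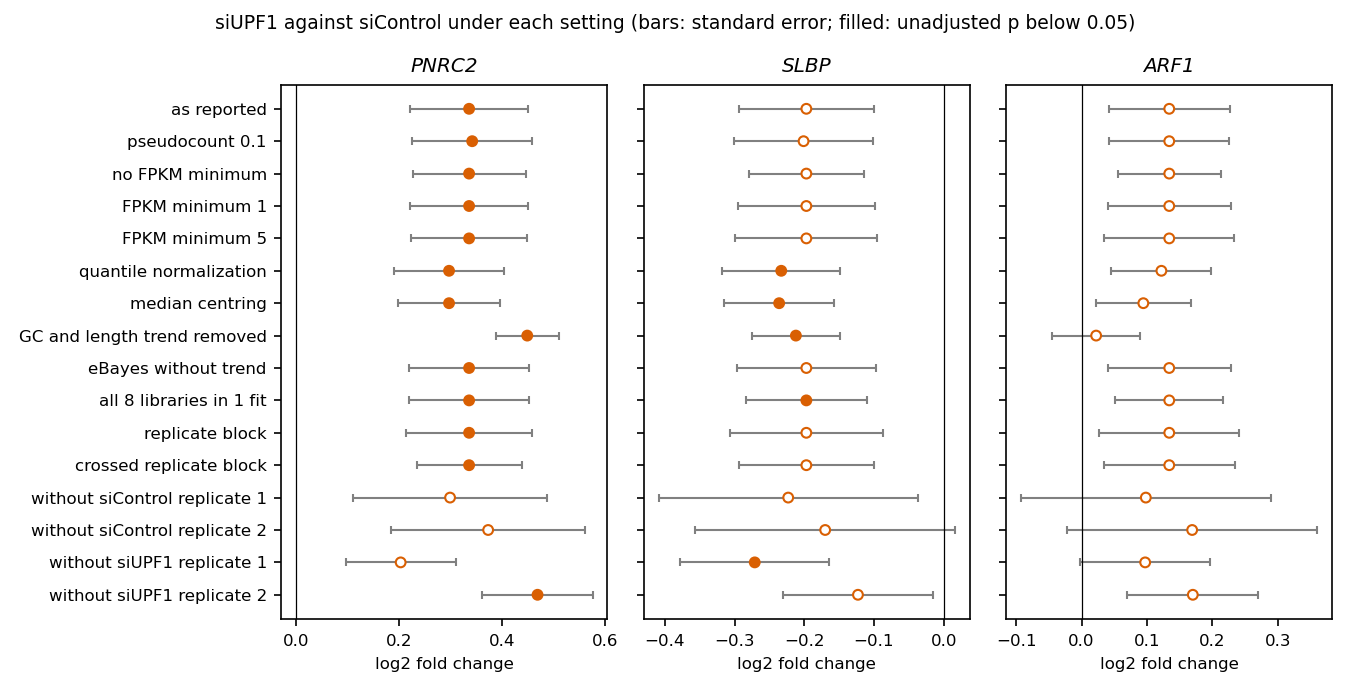
Log2 fold change after UPF1 depletion of PNRC2, SLBP and ARF1 under each processing alternative, with bars for the standard error and filled points past an unadjusted p of 0.05. PNRC2 lies between 0.203 and 0.469 and SLBP between -0.271 and -0.123, and ARF1 reaches 0.0223 where the GC and length trend was removed.

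The genes whose pattern over the 8 libraries was most like each of the 7 were taken by the root mean square difference of centred log2(FPKM + 1), among 13411 other genes, and share the libraries and their scaling. For PNRC2 they were PARP11 (0.0425) and CDCA7L (0.0507), against a median of 0.201 over all genes. For SLBP they were GDE1 (0.0242) and UBQLN2 (0.0276), and for ARF1 they were DCAKD (0.0226) and WDR45B (0.0296). STAU1 was closest to JPT2 (0.0193) and SH3KBP1 (0.0241), and STAU2 to TADA1 (0.0295) and KLHDC2 (0.0340). ZC3H12A was closest to PRR14 (0.0336) and TTC31 (0.0425), and NR3C1 to RNF146 (0.0249).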

How the data were processed

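Total RNA of Huh7 cells was made into stranded mRNA libraries and sequenced from both ends. After quality and adapter trimming, the authors aligned to hg19 (GRCh37) with HISAT 2.1.0 and assembled transcripts with StringTie 1.3.4d. They deposited FPKM values, 1 per gene and library. Series tables and single-library files differed in 0 values. FPKM holds no read number, and among 603 low genes the commonest ratio between a pair of libraries covered 0.829%, so no whole reads were recovered and no count model was run.

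Treated and control groups were compared in limma 3.58.1 (R 4.3.3; lmFit, eBayes with trend) on log2(FPKM + 1), where the mean was at least 0.5 FPKM. This scale understates changes of low genes. The p-values were adjusted over all genes tested. The difference between the responses was a contrast over all 8 libraries.

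The 7 genes and the lists were chosen with earlier results of these data known. The histone list was respelled in current symbols after the files were read. The genes named are the 7, UPF1, up to 4 genes per list and comparison that passed an unadjusted p of 0.05 with both treated libraries beyond both controls, by size of change, and the 2 nearest patterns per gene, of which 1 is not reported here. Other genes named, all from the lists, MIR3620 and PNRC2P1 were chosen after their values were seen. Positions, transcript GC content and 3′UTRs came from GENCODE release 44 on GRCh37, where 15263 genes matched. siRNA sequences were taken from the study's supplement and placed by a perfect match. Pairing by replicate number was checked with the correlation, across genes, of the deviations of same-numbered libraries from their group means, which was -0.129 for depletion and -0.569 for overexpression, so the numbers do not pair the libraries. Alternatives were a pseudocount of 0.1, no FPKM minimum or one of 1 or 5, quantile normalization, median centring, a loess fit on GC content and length subtracted from each library (span 0.5), eBayes without the trend, 1 fit of all 8 libraries, the replicate block, an adjusted p of 0.05 as the call, and each library left out. A crossed block was added after the data were seen. Stems were searched in Python 3.11.15, with loops of at least 4 bases and G-U pairs allowed.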

Additional observations from a re-analysis of the deposited data

How the results depend on the processing

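The number of reads per gene is unknown, and with 2 libraries per group single libraries decide much of what passes. Leaving out 1 library at a time moved the genes called after depletion between 1443 (without siControl replicate 1) and 5901 (without siUPF1 replicate 1), after overexpression between 216 and 777 (the highest without MYC replicate 1), and for the difference between the responses between 1065 (without MYC replicate 2) and 3376 (without siUPF1 replicate 1). Of the 7 genes, 0 to 2 were called after depletion and 0 to 2 for the difference. The causes of these changes were not tested.

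With a minimum of 5 FPKM fewer genes were tested, and 1862 were called after depletion, 49 after overexpression and 1282 for the difference. With no minimum 409 were called after overexpression, and with the GC and length trend removed 401, split into 219 higher and 182 lower against 82 and 107. At an adjusted p of 0.05 the counts were 5 genes and 0 of the 7 after depletion and 1 gene after overexpression. Over the other alternatives they ran from 0 (quantile normalization, median centring, replicate block, no minimum) to 445 (GC and length trend removed) after depletion and from 1 to 32 after overexpression, and with 1 library left out from 121 to 4546 and from 5 to 63. Of the 7, with 2 libraries in every group, only PNRC2 passed after depletion, and only with this trend removed, where 445 of 12510 genes passed. Without siUPF1 replicate 2 PNRC2 was at 0.469, and without siUPF1 replicate 1 SLBP was at -0.271. Of the 7 genes, those called after depletion were 2 with quantile normalization, with median centring and with all 8 libraries in a single fit, which called 20.9%, 21.2% and 22.7% of all genes, and 3 with the GC and length trend removed (23.9%). For the difference they were 1 with quantile normalization (14.4% of all genes) and with median centring (14%), which was SLBP, and 3 once the GC and length trend was removed (16.4%), which were PNRC2, SLBP and ZC3H12A. The split of the difference was 1585 higher and 456 lower, 1024 and 907 with quantile normalization, 1107 and 776 with median centring, and 1018 and 1023 once the GC and length trend was removed.

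No gene of the 7 that changed direction was called in the reported comparison. After depletion STAU1 (0.00838) was at -0.0167 with quantile normalization, -0.0309 with median centring and -0.0204 once the GC and length trend had been removed, where STAU2 was at 0.00718 and NR3C1 at 0.00454. With single libraries left out, STAU1 ranged from -0.0412 to 0.058, STAU2 from -0.211 to 0.136, ZC3H12A from -0.136 to 0.0856 and NR3C1 from -0.0914 to 0.021. After overexpression the same ranges were -0.0897 to 0.00736 for STAU1, -0.0551 to 0.0264 for STAU2, -0.133 to 0.172 for ZC3H12A, -0.059 to 0.153 for PNRC2 and -0.128 to 0.0383 for NR3C1. For the difference, STAU1 was at -0.00904 and NR3C1 at -0.0726 with quantile normalization, NR3C1 at -0.0384 with median centring and STAU2 at 0.0436 once the GC and length trend had been removed, and the ranges with single libraries left out were -7.44e-05 to 0.0992 for STAU1, -0.196 to 0.15 for STAU2, -0.198 to 0.108 for ZC3H12A and -0.0735 to 0.0931 for NR3C1.

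With the replicate number as a block, 2586 genes were called after depletion, 170 after overexpression and 1400 for the difference, and PNRC2 was the gene of the 7 called after depletion (0.336, adjusted p = 0.217). Of the other genes named after depletion, MIF4GD and NCOA1 lost their calls under the block, and H2BC4 did after overexpression. A crossed block, chosen after the data were seen, called 3102 genes after depletion and 1227 after overexpression.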
